A study of Mus musculus with 6 samples.

Results

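The sodium pump, water channel and proton exchange genes followed here number 8 in all. They are 3 genes of the sodium pump's beta subunit (Atp1b1, Atp1b2 and Atp1b3), 4 aquaporin genes (Aqp3, Aqp8, Aqp9 and Aqp11) and Slc9a3r1. They were chosen by their symbols among the 49993 genes of the deposited count table, and all 8 had counts and entered the test. RNA-seq libraries came from mouse embryos at the blastocyst stage, 3 developed in vivo and 3 cultured in vitro (n = 3 libraries each). In both groups the mothers were superovulated, with 10 IU of pregnant mare serum gonadotrophin and, after 48 h, 10 IU of human chorionic gonadotrophin (hCG), and then mated naturally. In vivo embryos were flushed out of the uterus on day 3.5. In vitro embryos were fertilized in the mother, collected from the oviduct as zygotes at 19 to 21 h after hCG, freed of cumulus cells with hyaluronidase, and cultured in KSOM, a potassium-enriched embryo medium, at 37 °C in 5% CO2. Blastocysts of both groups were picked by stage and morphology and frozen. The study asked which genes accompany telomere shortening in culture, Sirt6 being the gene in its title. For genotype, mouse strain and the age of the cultured blastocysts, the sources used here give nothing. The sample labels name a single inner cell mass per library and embryonic stem cell as the cell type, whereas the design text speaks of blastocysts.

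Levels are in CPM, counts relative to a library total scaled by the trimmed mean of M values (TMM). The blastocyst holds a fluid-filled cavity, the blastocoel, which the outer cell layer, the trophectoderm, pumps full. The Na,K-ATPase, a pump made of a catalytic alpha and a glycosylated beta subunit, moves sodium out across the basolateral membrane, and water follows the ion gradient through aquaporins, while Na/H exchangers bring sodium in on the apical side. The beta subunit is needed for the pump to fold and reach the membrane.

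Totals ranged from 6918288 to 17643429 counts per library. In vivo replicate 3 stood apart from its group: its Spearman correlations of log2 CPM across genes were 0.786 and 0.793 with in vivo replicates 1 and 2, which reached 0.942 with each other, and the in vitro libraries correlated at 0.789 to 0.848. Ribosomal RNA genes took 47.8% of the counts in in vivo replicate 3, against 18.4% and 24.4% in in vivo replicates 1 and 2 and 37.8% to 42.1% in the in vitro libraries, and the part of this in the results was not tested. Whether each library of a group had its own mother is not in the labels, so the p-values measure the spread between these libraries, which may be technical. Of 16 trophectoderm markers, 15 had at least 10 counts in every library, and their summed level was 962 to 2044 CPM in vivo against 1573 to 3325 CPM in vitro, so the data go against samples of inner cell mass alone. Of 14 epiblast markers, 13 had at least 10 counts in every library, with sums of 1870 to 3352 CPM over the 6 libraries. The 16 primitive endoderm markers summed to 640 to 1422 CPM in vivo against 1006 to 2457 CPM in vitro, and 14 of the 15 tested had a positive log2 fold change, as did 13 of the 16 trophectoderm markers. The groups did not overlap for 7 of the 15 primitive endoderm markers (46.7%, against 19.3% of all genes tested), 6 higher in vitro and 1 lower. DESeq2 called 5 markers of this list, 4 higher in vitro and 1 lower, beside 2.82% of its genes, and edgeR called 0. Of 10 cumulus and granulosa cell markers, 7 were at 0 in all libraries, among them Has2, Ptx3, Fshr and Lhcgr. The list summed to 0.527 to 15.1 CPM. Amhr2 had a mean of 9.26 CPM in vivo against 0.514 CPM in vitro, without overlap. The means of Star were 2.58 CPM in vivo and 2.26 CPM in vitro. Blood cell markers summed to 0 to 5.25 CPM, with Ptprc at 0 throughout. Uterine and oviduct epithelium markers summed to 12.4 to 56.6 CPM, with Ltf at 0 throughout. In this list the mean of Olfm1 was 0.874 CPM in vivo against 20.0 CPM in vitro, without overlap. Muc1 went the other way, at 10.2 against 0.984 CPM, also without overlap. Wfdc2 was at 13.2 and 27.4 CPM and overlapped.

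None of the 8 genes was called as different between the groups after adjustment over all genes. Levels in CPM of in vivo and in vitro libraries overlapped for all 8. The groups did not overlap for 19.3% of the 14301 genes tested, so 0 of 8 does not set these genes apart. With the quasi-likelihood test of edgeR and Benjamini-Hochberg adjustment over all genes, 0 of the 8 passed an adjusted p of 0.05, in a comparison where 0% of all genes passed. At an unadjusted p below 0.05 there was 1 of the 8, Slc9a3r1, beside 10.2% of all genes tested. DESeq2 called 0 of the 8, with 2.82% of its genes called, and limma-voom called 0, with 0.713% called. Log2 fold changes are given as in vitro minus in vivo. They were positive for 5 of the 8 and negative for 3, and their median was 0.18, beside a median of −0.01 over all genes tested. In these bulk samples, fewer cells of a type and less RNA per cell cannot be told apart.

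**Figure D1:**
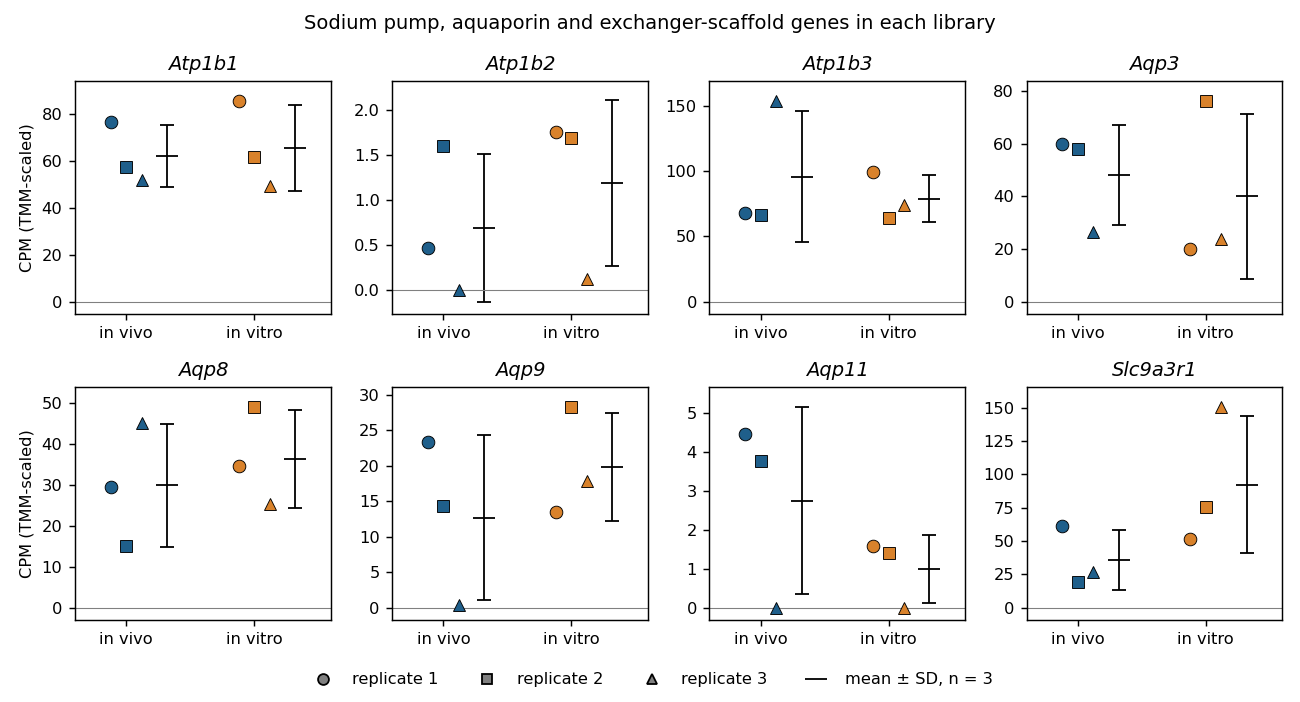
Level of each gene in every library, in CPM on TMM-scaled totals (y axis, a separate linear scale per gene), by group (x axis). Symbols are single libraries, and bars are the group mean ± SD (n = 3). In each of the 8 panels the in vivo and in vitro points overlap, and in vivo replicate 3 is the lowest library for Atp1b2 and Aqp9, level with in vitro replicate 3 at 0 for Aqp11, and the highest for Atp1b3.

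The beta 1 subunit gene Atp1b1 was the steadiest of the 8. It encodes the beta isoform found in most epithelia and lies on GRCm38 chromosome 1, minus strand, 164437099 to 164458355, with 6 exon blocks. Its level was 76.8, 57.6 and 51.8 CPM in in vivo replicates 1 to 3 and 85.5, 61.6 and 49.3 CPM in in vitro replicates 1 to 3. The highest library was 1.74 times the lowest, and both groups covered the same range. Its coefficient of variation over the 6 libraries was 22.6%, and 8.68% of the 8170 tested genes with a mean of at least 10 CPM varied less, with a median of 43.6%. The group means were 62.1 ± 13.1 CPM in vivo against 65.5 ± 18.4 CPM in vitro (SD, n = 3 each), with a log2 fold change of 0.08 ± 0.35 (SE, adjusted p = 0.964, edgeR). The 95% interval ran from −0.72 to 0.87, or from 0.608-fold to 1.83-fold, so larger shifts in either direction lie outside it. The sign of this small difference turned with library totals alone, with limma-voom and when in vivo replicate 3 or in vitro replicate 1 was left out (−0.30 to −0.01). Exons of Nme7, a gene on the opposite strand, share 202 bases with Atp1b1, 7.80% of its exon length, and the library kit does not mark strand. Nme7 had 11 to 95 counts per library, against 377 to 979 for Atp1b1.

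The promoters of 3 of the genes are shown because they carry the evenest level (Atp1b1), the single unadjusted p below 0.05 (Slc9a3r1) and the water channel that separated libraries within both groups (Aqp3). Each of these 3 windows runs from 250 bases before to 50 bases after a RefSeq gene start on GRCm38.p6, 5′ to 3′ on the gene's strand. Capitals mark matches on either strand to 3 motifs. The GC box was searched as GGGCGG. The CCAAT box was searched as CCAAT. The TATA box was searched as TATAAA.
Atp1b1, chr1:164458306-164458605, minus strand: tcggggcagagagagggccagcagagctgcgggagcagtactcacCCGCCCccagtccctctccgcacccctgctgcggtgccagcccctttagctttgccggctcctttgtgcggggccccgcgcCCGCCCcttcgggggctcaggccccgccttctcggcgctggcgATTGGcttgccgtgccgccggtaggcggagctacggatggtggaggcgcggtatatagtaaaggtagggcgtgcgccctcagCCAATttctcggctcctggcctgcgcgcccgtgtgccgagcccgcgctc
Slc9a3r1, chr11:115163091-115163390, plus strand: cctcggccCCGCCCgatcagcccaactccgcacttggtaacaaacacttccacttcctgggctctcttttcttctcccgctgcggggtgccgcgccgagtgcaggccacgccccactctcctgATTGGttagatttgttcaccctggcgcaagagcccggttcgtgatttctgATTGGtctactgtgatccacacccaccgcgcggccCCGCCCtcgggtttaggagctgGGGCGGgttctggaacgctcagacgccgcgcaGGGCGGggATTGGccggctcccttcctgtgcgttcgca
Aqp3, chr4:41098134-41098433, minus strand: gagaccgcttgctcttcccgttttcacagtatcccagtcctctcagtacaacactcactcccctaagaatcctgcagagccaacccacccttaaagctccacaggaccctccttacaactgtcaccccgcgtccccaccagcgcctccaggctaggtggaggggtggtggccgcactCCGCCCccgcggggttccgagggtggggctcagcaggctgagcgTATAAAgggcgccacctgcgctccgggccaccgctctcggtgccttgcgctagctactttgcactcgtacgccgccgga
The Atp1b1 window held 2 GC boxes and 2 CCAAT boxes. The Slc9a3r1 window held 4 GC boxes and 3 CCAAT boxes, and that of Aqp3 held 1 GC box and 1 TATA box. Over all 32851 windows of this length, 35.7% held the GC box, 37.4% the CCAAT box and 13.6% the TATA box. Motifs of factors that act in trophectoderm were also searched on both strands, and no search excluded overlap between motifs. That of TEAD factors, GGAATG, was in 14.7% of windows. That of TFAP2 factors, GCCNNNGGC, was in 16.6%. That of GATA factors, GATAAG, was in 7.44%. Among the 9 windows of the 7 genes matched, Aqp8 held 1 TEAD match, 1 of the 2 Atp1b3 windows held 1 TFAP2 match and 6 GC boxes, and none of the 9 held the GATA letters. The Aqp9 windows (upper ends 71162883 and 71163539) lay inside the gene, whose start on the minus strand is at 71167849. The other Atp1b3 window (upper end 96363965) also lay inside its gene, which starts at 96364431. The windows differed widely in CpG dinucleotides: Atp1b1 had 31, Atp1b3 34 and 39, Aqp11 and Slc9a3r1 27 each and Aqp3 21, whereas Aqp8 had 6 and Aqp9 1 and 4, beside a median of 7 over all windows. These matches describe letters in a window and are not binding sites.

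The beta 3 subunit gene Atp1b3, a widely expressed isoform, was highest in in vivo replicate 3. It lies on chromosome 9, minus strand, 96332655 to 96364431, with 8 exon blocks. Its level was 67.5, 66.2 and 153 CPM in in vivo replicates 1 to 3 and 98.9, 63.9 and 74.0 CPM in in vitro replicates 1 to 3. In vivo replicate 3 was therefore above all 3 in vitro libraries, while in vivo replicates 1 and 2 were within their range. Its log2 fold change was −0.28 ± 0.41 (SE, adjusted p = 0.864, edgeR, 95% interval −1.21 to 0.65). It was 0.13 with limma-voom, and 0.24 once in vivo replicate 3 was left out.

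Counts of Atp1b3 could be shared with a near-identical copy, the pseudogene Gm1848 on the plus strand of the X chromosome at 21146682 to 21147644 (963 bases). Among protein-coding transcripts of GENCODE M21, that of Atp1b3 aligned to the Gm1848 transcript over 805 bases at 96.4% identity, all within the coding region, with 13 mismatches, 2 gaps and a longest identical run of 149 bases. The 90 coding bases of the ungapped alignment with the most mismatches are shown, since a read that covers such a base can tell the copies apart. A read over a gap or past the aligned bases can do so too. Capitals mark the 4 mismatches.
Atp1b3, bases 530 to 619 of its transcript: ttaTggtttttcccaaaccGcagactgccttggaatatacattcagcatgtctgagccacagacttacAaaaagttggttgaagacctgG
Gm1848, bases 241 to 330 of its transcript: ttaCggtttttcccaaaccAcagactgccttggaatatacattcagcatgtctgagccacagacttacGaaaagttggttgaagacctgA
Gm1848 had 448, 372 and 307 counts in in vivo replicates 1 to 3, and 0, 103 and 0 counts in in vitro replicates 1 to 3. Every in vivo library was thus above every in vitro library, as for 10% of all genes tested in this direction. Its level was 29.0 ± 6.57 CPM in vivo (SD, n = 3), and 0, 7.57 and 0 CPM in vitro, where a count of 0 allows up to 0.527 CPM in replicate 1 and 0.392 CPM in replicate 3. It did not pass edgeR's test over all genes (log2 fold change −3.45 ± 1.45, SE, unadjusted p = 0.0412, adjusted p = 0.473). Of all genes tested, 5.08% had an unadjusted p below 0.05 and were lower in vitro. Gm1848 was singled out after its values were seen. With its counts added to those of Atp1b3, an alternative chosen after seeing the data, the sums were 103, 96.0 and 176 CPM in vivo against 98.9, 71.5 and 74.0 CPM in vitro. These still overlapped, and the log2 fold change was then −0.62 ± 0.35 (SE, adjusted p = 0.590, edgeR). The sources used here do not say how reads matching both loci were counted.

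**Figure D2:**
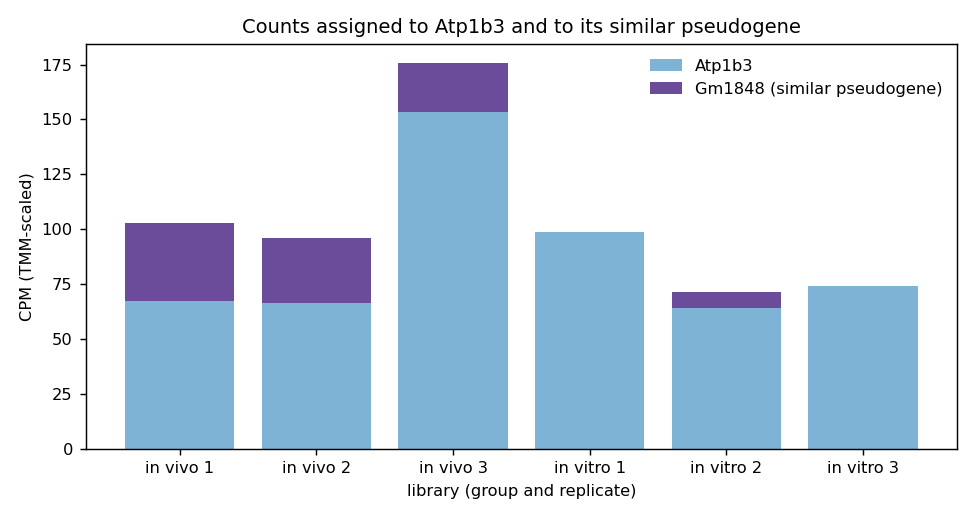
Stacked bars of the level in CPM (y axis) assigned to Atp1b3 (light) and to its similar pseudogene Gm1848 (dark) in each of the 6 libraries (x axis). Gm1848 is present in all 3 in vivo libraries and in 1 of the 3 in vitro libraries, and Atp1b3 peaks in in vivo replicate 3.

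The beta 2 subunit gene Atp1b2, an isoform known mainly from glia and neurons, was near the limit of detection. It lies on chromosome 11, minus strand, 69599728 to 69605978, and had 6, 20 and 0 counts in vivo against 10, 23 and 1 counts in vitro. That is 0 to 1.76 CPM, with the lowest library of both groups at replicate 3. The log2 fold change of 0.78 ± 1.72 (SE, adjusted p = 0.916, edgeR) has a 95% interval from −3.11 to 4.67, which leaves room for a large rise and a large fall. The library with 0 counts in vivo was also the deepest of the 6.

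Per kilobase of exon, Atp1b1 supplied most of the beta subunit counts in 5 of 6 libraries. Its share of the summed counts per kilobase of the 3 genes was 70.1%, 63.7% and 41.3% in in vivo replicates 1 to 3 and 63.8%, 66.0% and 58.1% in in vitro replicates 1 to 3. Atp1b3 supplied 29.6%, 35.2% and 58.7% in vivo and 35.4%, 32.9% and 41.8% in vitro, so the order was turned in in vivo replicate 3 alone. Atp1b2 made up at most 1.13%. The mean share of Atp1b1 was 58.4 ± 15.1% in vivo and 62.6 ± 4.09% in vitro (SD, n = 3 each), a difference of 4.23 percentage points. An exact two-sided permutation test gave p = 0.8 (adjusted p = 0.9 over the 3 shares), where 3 against 3 libraries cannot go below 0.1. Without in vivo replicate 3 the difference was −4.31 points. Counting error alone gave a 95% Wilson half-width of at most 3.12 points for the unscaled share of a single library. The exon length of Atp1b3 in the table is the union over all its RefSeq transcripts (5401 bases, against 2590 for Atp1b1), which lowers its level per kilobase if shorter forms prevail. On counts not divided by length the order of the 2 genes differed: Atp1b1 then held 53.0% in in vivo replicate 1 and 25.2% to 48.4% in the other 5 libraries, and Atp1b3 46.6% to 74.8%. With Gm1848 added to Atp1b3 the difference in the Atp1b1 share was 10.5 points (exact permutation p = 0.2).

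Aqp3 is an aquaglyceroporin that passes water and glycerol and sits on the basolateral side of many epithelia. In CPM it differed more within the groups than between them. It lies on chromosome 4, minus strand, 41092724 to 41098183. Its level was 60.0, 58.0 and 26.4 CPM in in vivo replicates 1 to 3 and 20.2, 76.3 and 23.8 CPM in in vitro replicates 1 to 3. In each group, high and low libraries were set apart by more than 2-fold, with in vitro replicate 2 the highest of all. Between the groups the log2 fold change was −0.26 ± 0.57 (SE, adjusted p = 0.916, edgeR, 95% interval −1.56 to 1.04). It depended on in vitro replicate 2, without which it was −1.15, and turned to 0.07 and 0.01 without in vitro replicates 1 and 3.

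Aqp8, a channel for water that also passes ammonia and hydrogen peroxide, was present in all libraries. The gene lies on chromosome 7, plus strand, 123462294 to 123468003, with levels of 29.3, 15.1 and 45.1 CPM in in vivo replicates 1 to 3 and 34.6, 48.9 and 25.4 CPM in in vitro replicates 1 to 3. The in vitro libraries fell almost entirely inside the in vivo range, with 1 slightly above it. For Aqp8 the log2 fold change was 0.28 ± 0.49 (SE, adjusted p = 0.887, edgeR, 95% interval −0.82 to 1.39). It was −0.04 without in vivo replicate 2, the lowest library, −0.01 without in vitro replicate 2, the highest, and 0.84 with limma-voom.

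Aqp9, an aquaglyceroporin that passes water, glycerol and other small solutes, was nearly missing from 1 library. The gene lies on chromosome 9, minus strand, 71110659 to 71167849, and had 298, 178 and 5 counts in in vivo replicates 1 to 3 and 77, 384 and 136 counts in in vitro replicates 1 to 3. These were 23.4, 14.3 and 0.359 CPM in vivo against 13.5, 28.2 and 17.8 CPM in vitro. The highest library was 78.5 times the lowest, and the other 5 lay between 13.5 and 28.2 CPM. For Aqp9 the log2 fold change was 0.65 ± 1.03 (SE, adjusted p = 0.873, edgeR, 95% interval −1.68 to 2.98). Without in vivo replicate 3 it was 0.09 and with the replicate number as a block 1.53.

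Aqp11, an intracellular aquaporin of the endoplasmic reticulum, was low. It lies on chromosome 7, minus strand, 97726379 to 97738247 and had 57, 47 and 0 counts in vivo against 9, 19 and 0 counts in vitro, or 4.47, 3.77 and 0 CPM and 1.58, 1.40 and 0 CPM. Replicate 3 of each group had none, where a count of 0 allows up to 0.216 CPM in vivo or 0.392 CPM in vitro. The log2 fold change was −1.46 ± 1.87 (SE, adjusted p = 0.836, edgeR), with a 95% interval from −5.67 to 2.75. This interval includes large differences in both directions.

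The leading aquaporin changed from library to library. Of the summed counts per kilobase of the 4 aquaporin genes, Aqp3 held 54.4%, 66.9% and 33.0% in in vivo replicates 1 to 3 and 29.3%, 51.7% and 38.9% in in vitro replicates 1 to 3. Aqp8 held 31.6%, 20.6% and 66.8% in vivo and 59.6%, 39.3% and 49.3% in vitro. Aqp3 was thus ahead in in vivo replicates 1 and 2 and in vitro replicate 2, and Aqp8 in the other 3 libraries, so neither group had a leading channel of its own. Aqp9 held at most 11.8% and Aqp11 at most 5.79%. On counts not divided by length, Aqp9 reached 26.6% in in vitro replicate 3. These shares are given without a test, and the 95% Wilson half-width of the unscaled shares was at most 4.89 points.

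**Figure D3:**
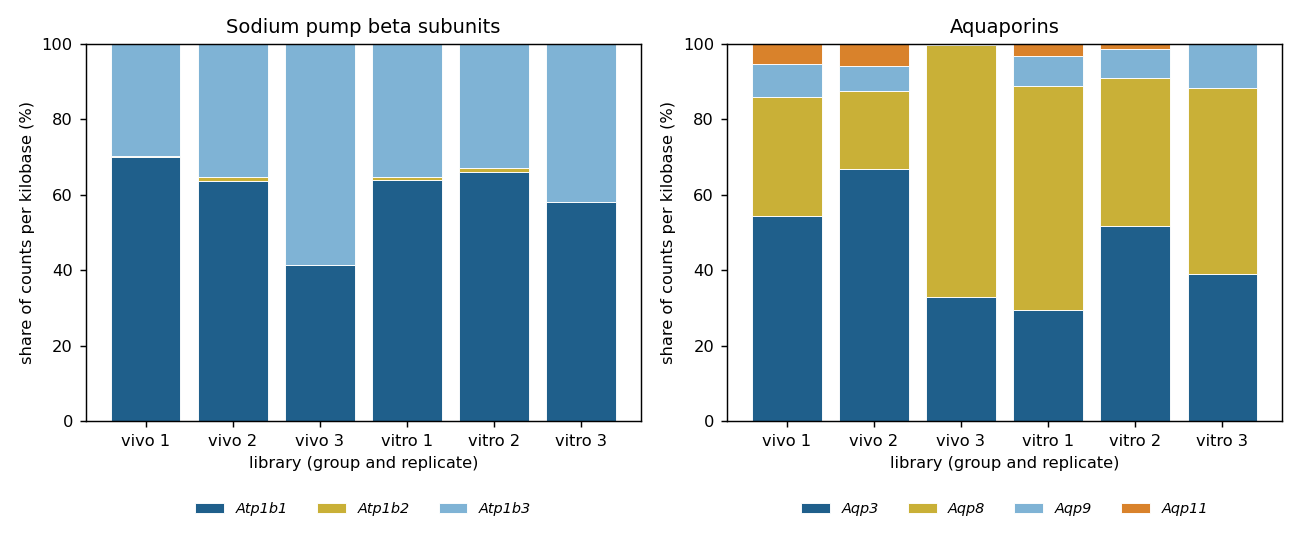
Share of summed counts per kilobase of exon (y axis, percent) within the 3 sodium pump beta subunit genes (left) and the 4 aquaporin genes (right) for each library (x axis). Atp1b1 holds the larger part in all libraries but in vivo replicate 3, and Aqp3 and Aqp8 exchange the lead within both groups.

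Slc9a3r1 was the 1 gene of the 8 whose 95% interval did not include 0, though it did not pass the adjusted test. It encodes NHERF1, a PDZ scaffold that ties membrane transporters such as the exchanger NHE3 to ezrin and the actin cortex, and is not itself an exchanger. It lies on chromosome 11, plus strand, 115163341 to 115181178, with 6 exon blocks. Its level was 61.6, 19.1 and 26.9 CPM in in vivo replicates 1 to 3 and 51.5, 75.4 and 150 CPM in in vitro replicates 1 to 3. In vivo replicate 1 was above in vitro replicate 1, and the other in vivo libraries were below all in vitro libraries. The group means were 35.9 ± 22.7 CPM in vivo against 92.4 ± 51.7 CPM in vitro (SD, n = 3 each). The log2 fold change was 1.37 ± 0.55 (SE), with a 95% interval from 0.12 to 2.61, an unadjusted p of 0.0349 and an adjusted p of 0.457 (edgeR). It kept its positive sign in all 16 alternatives tried, from 0.83 (in vitro replicate 3 left out) to 1.99 (in vivo replicate 1 left out), and with adjusted p-values from 0.127 to 0.884 it passed in none. Slc9a3, the gene of NHE3 and named outside the naming rule, had 0 counts in all 6 libraries, which allows up to 0.216 to 0.527 CPM.

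The libraries with the highest summed trophectoderm markers also had the highest Slc9a3r1. The summed markers were at 2044, 1289 and 962 CPM in in vivo replicates 1 to 3. In vitro replicates 1 to 3 were at 1573, 3060 and 3325 CPM. The 4 libraries with the highest sums were also the 4 with the highest Slc9a3r1, in the same order. In vivo replicates 2 and 3, the lowest on both, were in reverse order. Abundant markers weighed most in the sum, and single markers differed from it. In in vitro replicate 3, Id2 was at 812 CPM and Krt8 at 674 CPM. Cdx2 was at 10.3 CPM there, below in vitro replicates 1 and 2 (29.9 and 27.6 CPM). How many of all genes follow this sum was not counted. Per 1000 counts of the 16 markers, a ratio chosen after seeing the data, Slc9a3r1 had 30.2, 14.8 and 27.9 counts in vivo against 32.7, 24.6 and 45.3 counts in vitro. On this scale in vitro replicate 2 was below in vivo replicates 1 and 3. Of the genes followed here, only Aqp3 did not overlap on it. Aqp3 had 29.4, 45.0 and 27.4 counts in vivo against 12.8, 24.9 and 7.16 counts in vitro. The share of all genes without overlap on this scale is not given here. The part of trophectoderm content in these differences was not tested.

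**Figure D4:**
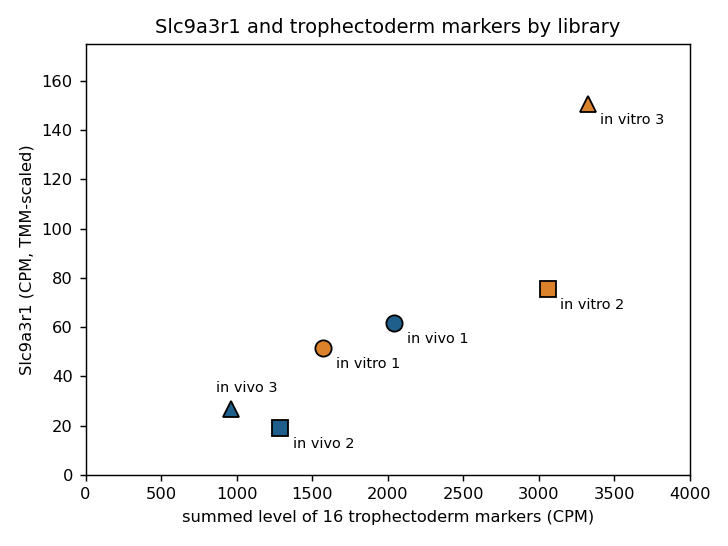
Slc9a3r1 level in CPM (y axis) against the summed level of 16 trophectoderm markers in CPM (x axis) for each of the 6 libraries (blue in vivo, orange in vitro). In vitro replicate 3 is highest on both axes, at 150 and 3325 CPM, and in vivo replicates 2 and 3 are lowest on both.

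Ordered by mean level per kilobase of exon, the 8 genes fell into 2 tiers in both groups. In vivo the order was Aqp3 (27.3 ± 10.7 CPM per kilobase), Atp1b1 (24.0 ± 5.05), Aqp8 (20.1 ± 10.1), Slc9a3r1 (18.7 ± 11.8) and Atp1b3 (17.7 ± 9.26), followed by Aqp9 (2.91 ± 2.66), Aqp11 (2.08 ± 1.82) and Atp1b2 (0.167 ± 0.199; SD, n = 3). In vitro it was Slc9a3r1 (48.1 ± 26.9), Atp1b1 (25.3 ± 7.12), Aqp8 (24.4 ± 7.97), Aqp3 (22.7 ± 17.8), Atp1b3 (14.6 ± 3.33), Aqp9 (4.56 ± 1.74), Aqp11 (0.751 ± 0.654) and Atp1b2 (0.287 ± 0.222). Neighbours among the first 5 overlapped in their libraries in both groups, so their order is not set by these data. The step from Atp1b3 to Aqp9 was clear of overlap in both groups, and that from Aqp9 to Aqp11 in vitro only. The 2 tiers depended on division by exon length, which was 4350 bases for Aqp9 and 1486 bases for Aqp8. In CPM alone, Aqp9 and Aqp8 overlapped in vivo (0.359 to 23.4 and 15.1 to 45.1 CPM). They also overlapped in vitro (13.5 to 28.2 and 25.4 to 48.9 CPM). Over the 6 libraries the upper 5 lay above 78.1% to 87.3% of all tested genes in level per kilobase, Aqp9 above 48.0% and Atp1b2 above 2.61%.

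**Figure D5:**
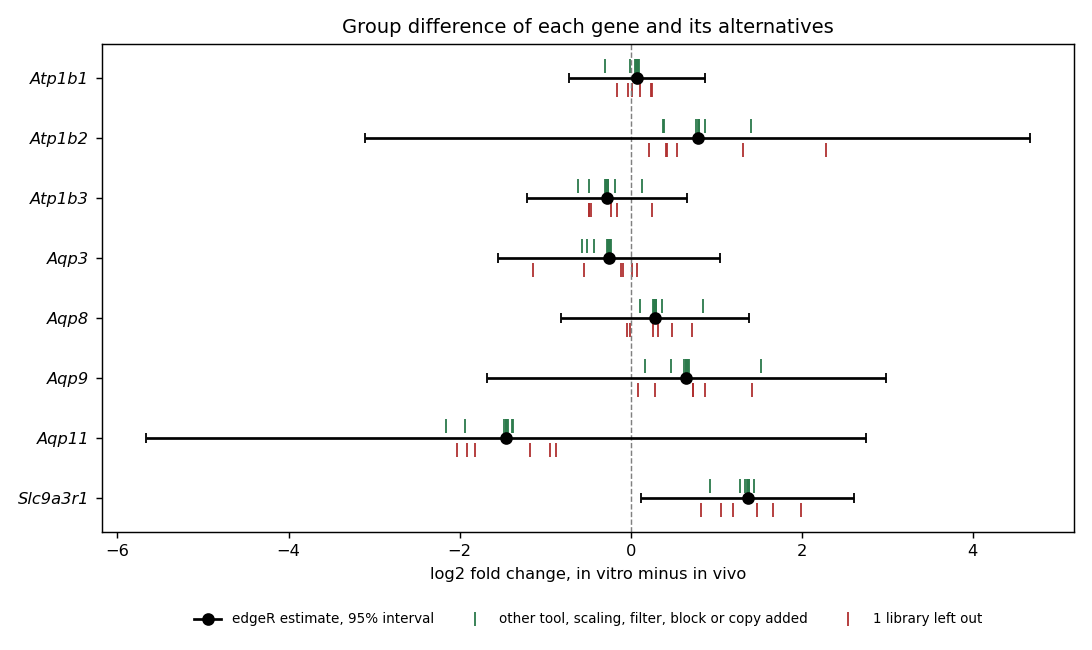
Log2 fold change (x axis; positive values, higher in vitro), of each of the 8 genes (rows). Black points and bars are edgeR estimates with 95% intervals. Green ticks are other tools, scalings, filters, the replicate block and, for Atp1b3, the added copy, and red ticks leave out 1 library each. The interval of Slc9a3r1 lies above 0 (0.12 to 2.61), those of the other 7 include 0, and red ticks lie on both sides of 0 for Atp1b1, Atp1b3, Aqp3 and Aqp8.

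The wider transport genes were read from 4 lists of 76 symbols, of which 16 were at 0 in all libraries and 35 were tested, the 8 genes above included. By edgeR 0 of the 35 passed and 5 had an unadjusted p below 0.05, beside 10.2% of all genes tested. DESeq2 called 1 of the 35, beside 2.82% of its genes, and limma-voom called 0. The groups did not overlap for 6 (17.1%, against 19.3% of all genes tested), 5 of them higher in vitro (9.27% of all genes) and 1 lower (10%). Log2 fold changes were positive for 23 of the 35, and their median was 0.28. Among 20 genes of pump subunits and FXYD regulators, 8 were tested, 5 positive and 3 negative. Fxyd4, whose small membrane protein modulates the pump, was at 12.4 ± 1.28 CPM in vivo against 15.5 ± 10.3 CPM in vitro (SD, n = 3 each). Fxyd6, of the same family, was at 5.22 ± 1.91 and 2.17 ± 1.88 CPM, and Atp12a, a non-gastric H,K-ATPase, at 2.99 ± 3.81 and 1.86 ± 2.28 CPM. Nkain1, which encodes a protein that binds the beta 1 subunit, was at 0.471, 1.84 and 1.58 CPM in vivo against 7.55, 8.89 and 3.53 CPM in vitro, with no overlap (adjusted p = 0.488, edgeR). The catalytic alpha subunits were not among the genes taken by the naming rule and are counted in the list only. Of 12 aquaporin genes, 6 had no counts in any library and 4, those described above, were tested.

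Among 20 exchanger and scaffold genes, 11 were tested, 7 positive and 4 negative. The partners of Slc9a3r1 in the cell cortex, the ezrin-radixin-moesin genes, had higher means in vitro, none past the test, and that of Rdx rested on 1 library. Ezr, which encodes ezrin, was at 89.6 ± 27.4 CPM in vivo against 137 ± 10.5 CPM in vitro (SD, n = 3 each), with no overlap between 72.7 to 121 and 125 to 145 CPM (log2 fold change 0.61 ± 0.32, SE, adjusted p = 0.554, edgeR). Msn, for moesin, was at 49.5 ± 10.5 and 112 ± 53.9 CPM, and Rdx, for radixin, at 64.9 ± 14.8 and 108 ± 71.0 CPM (SD, n = 3 each), and their groups overlapped. In vitro replicate 3 was at 190 CPM of Rdx and the other 5 libraries at 50.3 to 79.8 CPM, and without it the log2 fold change of Rdx was 0.057, against 0.74 with it.

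Of 24 other ion transport genes, 12 were tested, 9 positive and 3 negative. The DESeq2 call was Car2, a cytosolic carbonic anhydrase that makes bicarbonate and protons, with 47, 7 and 1 counts in vivo against 299, 132 and 187 counts in vitro. All 3 in vitro libraries (52.5, 9.70 and 24.4 CPM) were above all 3 in vivo libraries (3.69, 0.561 and 0.0719 CPM). The log2 fold change was 4.32 ± 1.22 (SE), with an adjusted p of 0.358 by edgeR and 0.00599 by DESeq2. It was 6.46 when in vivo replicate 1 was left out and was 3.56 when in vitro replicate 1 was. Without a filter on low counts edgeR gave an adjusted p of 6.48e-05 for Car2, in a range of 6.48e-05 to 0.869 over the alternatives. In simulated counts DESeq2 made 93 false calls, against 4 by edgeR, so the DESeq2 call of Car2 is not to be taken alone. Car4, a membrane-bound carbonic anhydrase, was at 0.813 ± 1.08 CPM in vivo against 7.10 ± 2.91 CPM in vitro with no overlap (SD, n = 3 each; adjusted p = 0.516, edgeR). Slc12a7, a potassium-chloride cotransporter, was at 54.7, 51.0 and 78.5 CPM in vivo against 19.7, 39.9 and 10.8 CPM in vitro, lower in all in vitro libraries (log2 fold change −1.38 ± 0.50, SE, adjusted p = 0.425, edgeR). Slc12a4, of the same family, was at 1.51 ± 1.56 and 7.19 ± 6.12 CPM and overlapped.

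For 6 of the genes with a mean of at least 10 CPM, the genes of most similar level over the 6 libraries were sought among 6520 tested genes by Pearson correlation of log2 CPM. Those of Atp1b1 were Pisd, Eif3c and Rcl1 (r from 0.964 to 0.970), and those of Atp1b3 were Ipo9, Bfar and Stk40 (0.985 to 0.996). Aqp3 was most like Cmtm7, Ttc39b and Nop53 (0.975 to 0.980), Aqp8 most like Ehd1, Dpy19l1 and Ddx54 (0.960 to 0.981), and Aqp9 most like Atp6v1f, a subunit of the vacuolar proton pump, and Gemin4 (0.996 and 0.989). Slc9a3r1 was most like Cib2, Acad9 and Sipa1l2 (0.981 each). The best match of any of the 6520 genes had a median r of 0.992 over these 6 libraries, so such values are usual and describe shared libraries only.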

How the data were processed

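Total RNA was extracted at small scale and made into libraries by a kit that uses a transposase, per the labels' protocols. The authors deposited raw counts per gene for the 6 libraries in 1 table, with gene lengths and exon coordinates. For aligner, counter and strand setting the sources used here give nothing. FastQC 0.11.2, DESeq2 and GRCm39 are named in the submitters' processing notes, but start and end of each of 47551 genes compared equal RefSeq's on GRCm38.p6, so coordinates are on GRCm38.

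Libraries were grouped by title. Counts were tested with edgeR 4.0.16 (R 4.3.3): edgeR's filter on low counts (14301 genes kept), TMM scaling, robust dispersions and the legacy form of the quasi-likelihood F-test (two-sided), adjusted by Benjamini-Hochberg. Standard errors and 95% intervals derive from the F statistic. DESeq2 1.42.0 and limma 3.58.1 (voom with quality weights) were run beside it. A count of 0 allows up to 3 counts (0.216 to 0.527 CPM), and intervals and floors on counts cover counting error only. Shares used exact permutation tests (SciPy 1.17.1), and similar transcripts were sought with BLAST 2.17.0 (at least 90% identity over 100 bases). Simulated counts for these genes and libraries checked the tests. Changes were placed only in genes with a mean of at least 10 CPM. Recovery at the lower levels of Atp1b2 and Aqp11 was not simulated, nor was a library that stands apart. Of 4-fold changes edgeR recovered 30%, DESeq2 57% and limma-voom 28%, and of 16-fold changes 91%, 98% and 75%. False calls numbered 4, 93 and 2.

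The 8 genes, the lists and the rules were chosen with earlier results of these data known. Named were the 8 genes, up to 4 further tested genes of smallest p from each of 4 transport lists, and the 3 genes most correlated with each of the 8 whose mean was at least 10 CPM, predicted genes and pseudogenes left out. Of the genes so chosen, 2 are not reported here. Alternatives were other tools, scalings, filters and dispersion settings, totals without ribosomal RNA genes, each library left out and the replicate number as a block. Added after the data were seen were the sum of Atp1b3 and Gm1848 counts and unscaled aquaporin shares. Protein sequences were not used here.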

Additional observations from a re-analysis of the deposited data

How the results depend on the processing

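The count of 0 among the 8 genes held under all 16 alternatives run for these counts. Over all genes edgeR called 0 as planned and under each left-out library, but 391 without a filter and 3 in its newer form, while DESeq2 called 459 and limma-voom 102. The replicate number showed no sign of pairing the libraries: deviations of same-numbered libraries from their group means correlated at −0.10, 0.10 and −0.04. With 3 libraries per group, these values cannot settle whether same-numbered libraries were handled together. With the replicate block edgeR called 0 genes and 0 of the 8, and the Atp1b1 share differed by 4.23 points (exact p = 0.75, sign flips of the 3 pair differences). That test cannot go as low as the 0.1 of the unpaired permutation test. Under the block Atp12a turned to 0.64. Library totals alone shifted the median of all genes to −0.31 and gave −0.30 for Atp1b1, and limma-voom gave −0.0096 for Atp1b1 and 0.13 for Atp1b3. With single libraries left out, log2 fold changes ranged from −0.15 to 0.25 for Atp1b1, −0.49 to 0.24 for Atp1b3, −1.15 to 0.068 for Aqp3, −0.041 to 0.71 for Aqp8, −2.31 to 1.13 for Atp12a and −0.11 to 0.79 for Fxyd4. Share differences then ranged from −4.31 to 10.1 points for Atp1b1, −0.0066 to 0.547 for Atp1b2 and −10.2 to 4.31 for Atp1b3. The cause of these turns was not tested. Unscaled by length, the difference in the Aqp9 share was 9.35 points, against 4.02. The filter of at least 5 CPM in at least 3 libraries removed Atp1b2 and Aqp11. These 2 genes had 60 and 132 counts over all 6 libraries, and none in the deepest, so depth and the spread between libraries were not separated.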

Other observations

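In vivo replicate 3 also stood apart in a pair of the wider transport genes, chosen here after their values were seen. Atp4a, the catalytic subunit of the gastric proton pump, had 144 counts in in vivo replicate 3 and 0 in the other 5 libraries. Slc9a5, a sodium/proton exchanger gene, had 218 counts in that library and 6 to 44 in the others. That library also had the highest Atp1b3 and the lowest Aqp9 of the 6.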
